A study of Caenorhabditis elegans with 15 samples.

Results

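The transcript levels of whole Caenorhabditis elegans that carried both atfs-1(tm4525) and fndc-1(rny14) were set against those of wild-type worms. The comparison used 10 of the 15 RNA-seq libraries of the series, 5 of the double mutant and 5 of wild type, which were chosen by the strain names in the count table. All strains had the N2 background, the standard laboratory strain, and N2 itself served as wild type. Worms were whole animals at day 1 of adulthood and were kept without stress. The remaining 5 libraries, of the fndc-1(rny14) single mutant, helped to estimate the spread between libraries. Their values are given beside the double mutant for some genes only. A gene given without them is not thereby particular to the double mutant. The labels give neither the extent of either lesion nor whether libraries came from separate cultures. The p-values therefore rest on how far these libraries differ, which may be technical. No strain carried atfs-1(tm4525) alone, so the effect of that allele by itself cannot be read from these data. A difference between double mutant and wild type belongs to both alleles together. Values of the fndc-1 single mutant show only how much of it was present without the atfs-1 allele.

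ATFS-1 is a transcription factor that is imported into healthy mitochondria and degraded there. When import fails it moves to the nucleus and turns on chaperone, protease and metabolic genes, a program known as the mitochondrial unfolded protein response. FNDC-1 is the worm member of the FUNDC1 family of mitochondrial outer membrane receptors, which bind the autophagy machinery and mark mitochondria for removal (mitophagy).

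Counts summed to 50857193 to 56917098 in double-mutant libraries and 46984106 to 61921123 in wild-type libraries, and 17228 to 17834 genes had at least 1 count in each of these 10 libraries. Double-mutant libraries 2 and 4 stood apart from the other 3 of their strain. In library 2, 1184 genes lay more than 2-fold below all other double-mutant libraries and 130 more than 2-fold above them, and in library 4 the numbers were 211 below and 1554 above. No other of the 10 libraries had more than 185 genes beyond 2-fold on either side. Wild-type libraries also fell into sets: libraries 2 and 4 lay at 24.5 and 14.8 on the first principal component, and libraries 1, 3 and 5 at -54.8, -64.4 and -60.2. All members in the count table of the lists for neurons, body wall muscle, intestine, hypodermis, oocytes and germline had counts in both strains. Of 77 pharynx genes, 3 had no count in the double mutant and 3 had none in wild type. Of 77 sperm genes the numbers were 3 and 2. Most genes had counts in each library, so a count alone is a weak sign of a tissue.

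**Figure D1:**
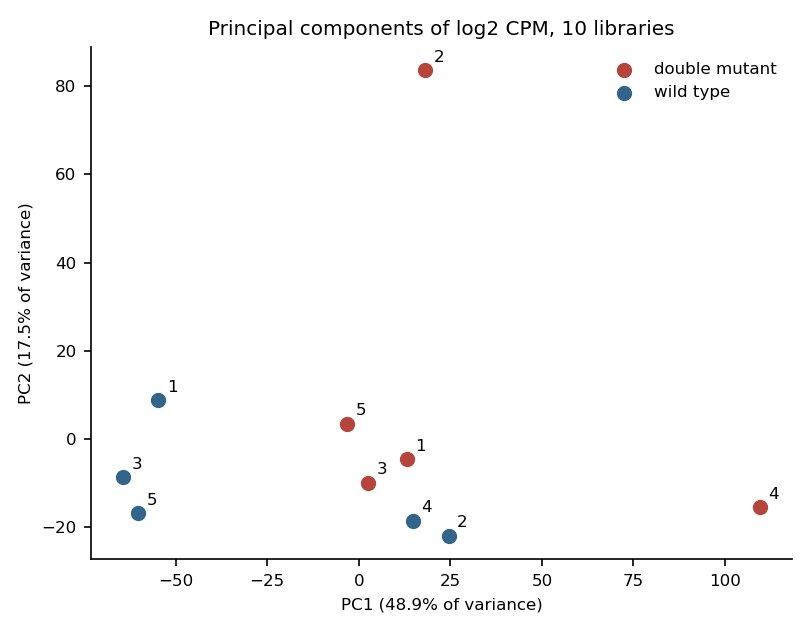
Principal components of log2 CPM over the 10 libraries, with 1 point per library, the library number beside it and the share of variance on each axis. Double-mutant library 4 lies far right at 109.6 on the first component and double-mutant library 2 far up at 83.6 on the second, while wild-type libraries 2 and 4 lie on the side of the double mutant.

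The libraries that stood apart also differed in tissue and stage markers, read as the summed CPM (counts scaled to library size) of each list. Germline and P granule genes summed to 5336 CPM in double-mutant library 2 and to 10611 to 13005 CPM in the other double-mutant libraries, against 10480 to 12747 CPM in wild type. Yolk protein genes summed to 22796 CPM in double-mutant library 2 and to 57738 to 93971 CPM in the other double-mutant libraries, against 67972 to 94337 CPM in wild type. Sperm genes summed to 550, 568, 454, 1693 and 362 CPM in double-mutant libraries 1 to 5, against 97.6, 575, 103.7, 460 and 92.6 CPM in wild-type libraries 1 to 5, so that only wild-type libraries 1, 3 and 5 lay below the double mutant. Of 69 sperm genes tested, 43 were higher and 0 lower at an unadjusted p under 0.05, against 3202 of all 15032 genes in either direction. After adjustment, however, 0 sperm genes passed in edgeR, 4 in DESeq2 and 0 in limma-voom, against 4.71% of all genes in edgeR. Moulting cycle genes summed to 803 CPM in double-mutant library 4 and to 310 to 462 CPM in the other double-mutant libraries, against 319 to 539 CPM in wild type. In whole worms, a smaller share of a tissue and less RNA per cell of that tissue cannot be told apart. For this reason the main counts below are also given without double-mutant libraries 2 and 4.

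**Figure D2:**
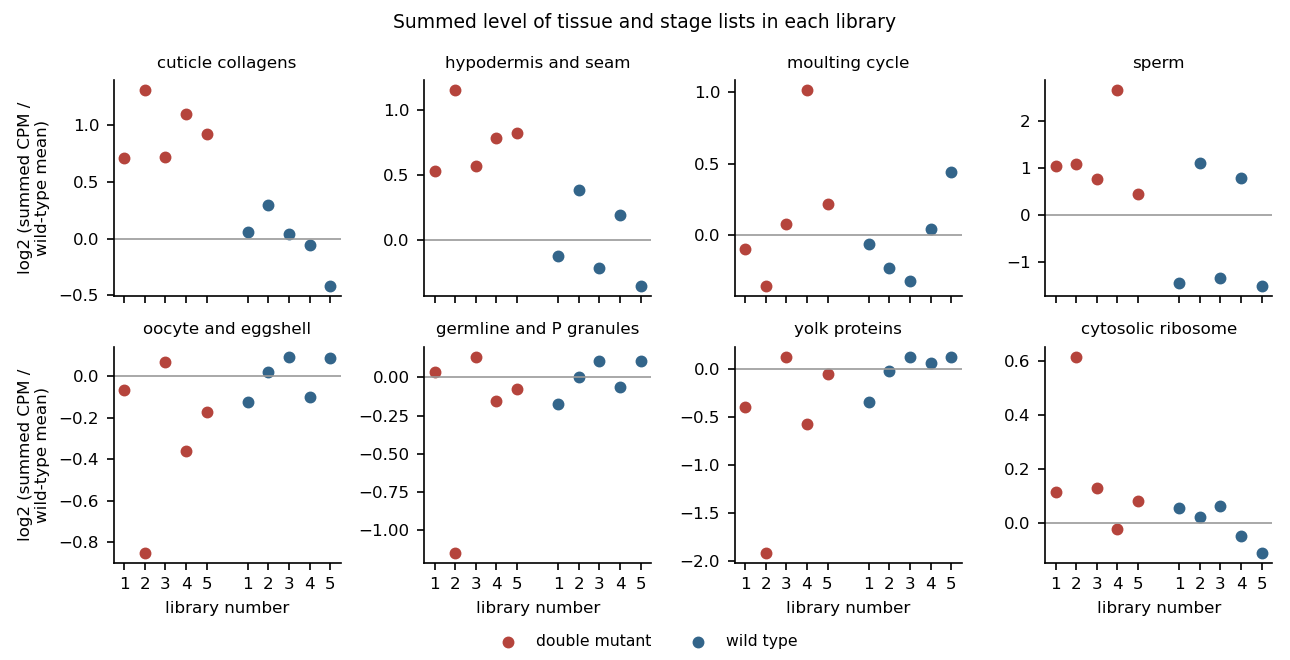
Summed CPM of 8 gene lists in each library, as log2 of its ratio to the wild-type mean, with the double mutant on the left and wild type on the right of each panel. Cuticle collagens and hypodermis lie above wild type in all 5 double-mutant libraries. Most of the hypodermis sum is the collagen col-19, so it does not show a rise apart from collagens. In double-mutant library 1 col-19 gave 1254 of 1418 CPM, and in wild-type library 2 it gave 1126 of 1286 CPM. Double-mutant library 2 is low for germline and yolk genes, and double-mutant library 4 is high for sperm and moulting genes.

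The mutated genes come first. On chromosome II (11236624 to 11237325, minus strand, WBcel235), fndc-1 had 7.82, 10.2, 7.04, 7.35 and 7.37 CPM in double-mutant libraries 1 to 5, against 47.2, 40.3, 40.4, 39.8 and 36.8 CPM in wild-type libraries 1 to 5. All double-mutant libraries thus lay far below all wild-type libraries (log2 fold change -2.36, standard error (SE) 0.105, adjusted p = 1.369e-08). The level was as low in the fndc-1 single mutant, at 7.39 ± 0.130 CPM (SD, n = 5). The atfs-1 transcript (chromosome V, 14193663 to 14197700, plus strand) fell much less, to 78.3, 68.4, 79.99, 73.7 and 76.8 CPM in the double mutant, against 96.8, 106, 102, 106 and 109.8 CPM in wild type (log2 -0.46, SE 0.0592, adjusted p = 0.0004443). It was 93.4 ± 4.66 CPM in the fndc-1 single mutant (SD, n = 5). The double mutant lay below that strain too (log2 -0.31, adjusted p = 0.01558). Counts from outside a lesion do not test it, so the atfs-1 level checks that genotype only in part.

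More genes were higher than lower in the double mutant. Of 15032 genes tested with edgeR's quasi-likelihood test, 708 (4.71%) passed a Benjamini-Hochberg adjusted p of 0.05, with 558 (3.71%) higher and 150 (0.998%) lower, and 3202 had an unadjusted p under 0.05. The median log2 fold change was 0.79 among the higher genes, -0.67 among the lower genes and -0.0023 over all genes tested. At least a 2-fold difference was reached by 172 higher and 61 lower genes, and a 4-fold difference by 31 and 17. The 5 libraries of each strain did not overlap for 997 genes tested (6.63%) and for 576 of the 708.

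Of the 558 higher genes, 232 had their highest value in double-mutant library 2 and 229 in library 4. Of the 150 lower genes, 50 and 60 had their lowest value there. Without these libraries 493 of 15234 genes passed (3.24%), 360 (2.36%) higher and 133 (0.873%) lower. All 708 genes kept their direction, and 361 of them passed both times, 291 higher and 70 lower. The total was 1157 without double-mutant library 2, 447, 407, 425, 397 and 400 without double-mutant library 4 or 5 or wild-type library 2, 4 or 5, and 610 to 738 without any other library. Genes described below as higher or lower kept their call under all settings tried, including each library left out in turn, unless a lost call is given. The settings named for a lost call are mainly the omissions of libraries, and most of these calls were also lost when only the 10 libraries compared were fitted.

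Of the leading higher genes, the one with the smallest adjusted p was scrm-4, of the phospholipid scramblase family. It had 5.55, 5.97, 5.04, 6.36 and 5.20 CPM in the double mutant, against 1.66, 1.79, 1.81, 1.77 and 1.48 CPM in wild type (log2 1.72, SE 0.122, adjusted p = 3.048e-06). Every double-mutant library lay well above every wild-type library. In the fndc-1 single mutant it had 1.64 ± 0.171 CPM (SD, n = 5), so the double mutant differed from that strain as well (log2 1.78, adjusted p = 5.115e-07).

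The sugar transporter gene swt-3 of the SWEET family had 21.3, 20.5, 18.7, 24.3 and 20.99 CPM in the double mutant, against 6.47, 8.04, 6.82, 8.86 and 5.14 CPM in wild type (log2 1.58, SE 0.133, adjusted p = 1.792e-05). Its mean of 12.7 ± 1.00 CPM in the fndc-1 single mutant (SD, n = 5) lay between those of the other strains, and the double mutant was above it (log2 0.74, adjusted p = 0.008324). Another membrane transporter gene, slc-17.4, had 23.7, 20.2, 24.4, 20.2 and 27.4 CPM in the double mutant, against 8.42, 9.26, 12.2, 8.69 and 9.57 CPM in wild type (log2 1.26, SE 0.132, adjusted p = 0.0001067). It too was above the fndc-1 single mutant (12.4 ± 1.77 CPM, SD, n = 5, log2 0.90, adjusted p = 0.001597). The glutamine synthetase gene gln-3 showed a small difference with little spread, 114 to 126 CPM in the double mutant against 81.0 to 87.01 CPM in wild type (log2 0.51, SE 0.055, adjusted p = 0.0001108). Its level in the fndc-1 single mutant, 89.8 ± 5.67 CPM (SD, n = 5), was also lower than in the double mutant (log2 0.42, adjusted p = 0.000581). The gene eppl-1 had 43.5 to 49.8 CPM in the double mutant, against 23.5 to 30.1 CPM in wild type (log2 0.77, adjusted p = 6.97e-05), and the fndc-1 single mutant had 39.95 ± 1.56 CPM of it (SD, n = 5).

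**Figure D3:**
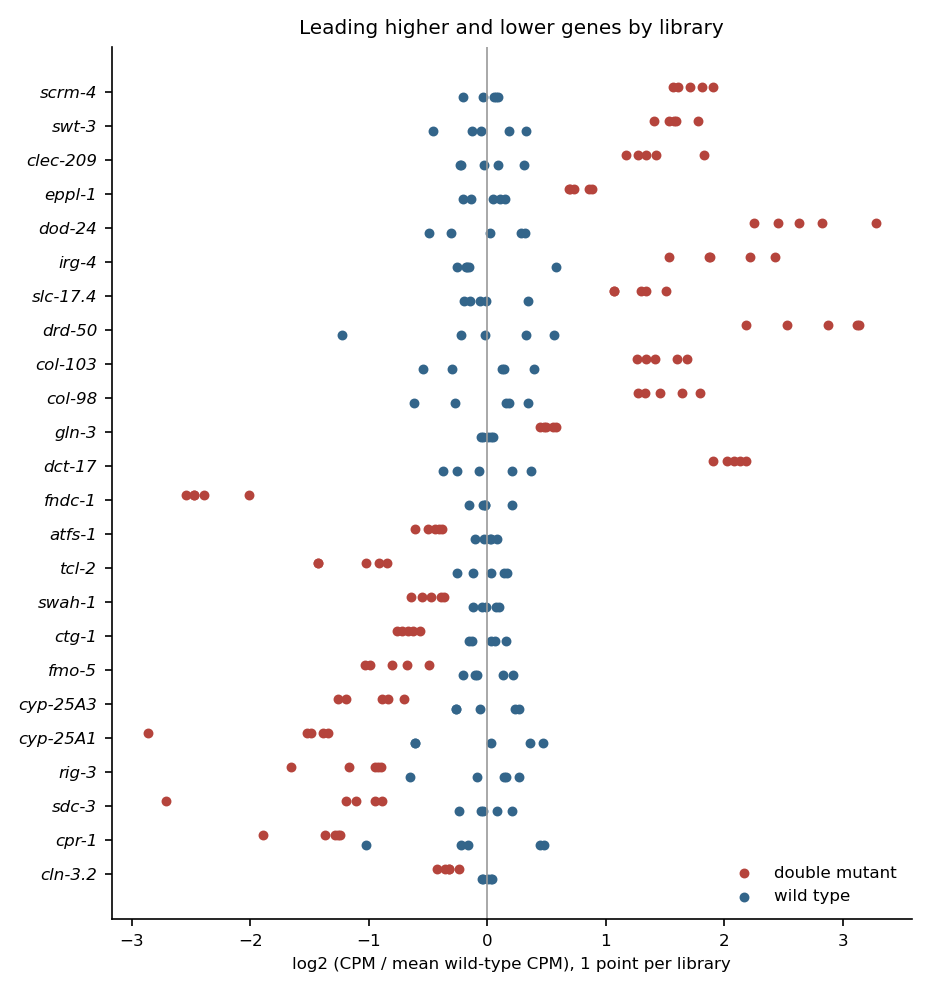
Level of the 12 leading higher genes and the 12 leading lower genes in each library, as log2 of CPM over the wild-type mean, with the double mutant drawn above wild type in each row. The genes were picked by adjusted p and for not overlapping, so the strains are apart by choice, and the points show by how much.

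The cuticle of the worm is built largely of collagens, secreted by the hypodermis in sets that differ between larval stages and the adult. Of 146 cuticle collagen genes tested, out of 178 listed, 22 were higher in the double mutant and 0 were lower, against 3.71% and 0.998% of all genes. At an unadjusted p under 0.05 there were 46 higher and 0 lower, where 3202 of all 15032 genes were under it in either direction. DESeq2 called 31 higher and 0 lower. With single libraries left out, 16 to 23 were higher, with 16 without double-mutant library 5 or wild-type library 4 or 5. Between the double mutant and the fndc-1 single mutant 0 of the collagens passed, against 0.978% of all genes. The median log2 of the list was 1.12 for double over single mutant and -0.10 for single mutant over wild type. Their summed level was 29309, 44479, 29557, 38407 and 33884 CPM in double-mutant libraries 1 to 5, against 18607, 21955, 18485, 17187 and 13399 CPM in wild-type libraries 1 to 5. The strains did not overlap, and the 2 double-mutant libraries that stood apart held the highest sums. The called collagens had log2 fold changes of 0.65 to 1.51. The highest were col-98 (523 ± 79.8 CPM in the double mutant and 183 ± 46.2 CPM in wild type, SD, n = 5 each, log2 1.51, adjusted p = 0.0001108) and col-103 (457 ± 57.4 CPM in the double mutant and 165 ± 41.2 CPM in wild type, SD, n = 5 each, log2 1.47). Both, and also col-80 (log2 1.19) and col-160 (log2 1.18), lay higher in all 5 double-mutant libraries than in any wild-type library. In the fndc-1 single mutant col-98, col-103, col-80 and col-160 were above wild type too (log2 0.81, 0.84, 0.62 and 0.69, adjusted p = 0.01689, 0.009467, 0.02981 and 0.01921). The double mutant did not pass against that strain for them (adjusted p = 0.0542, 0.07958, 0.06135 and 0.1594). Collagen genes resemble each other, so some reads may have been shared between them.

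The adult-stage collagen col-19, a standard reporter of adult hypodermal identity, had 1254, 2069, 1271, 1398 and 1547 CPM in the double mutant, against 749, 1126, 703, 945 and 579 CPM in wild type (log2 0.88, SE 0.18, adjusted p = 0.0118). Every double-mutant library lay above wild type, by a small margin over wild-type library 2. Its call was lost when only the 10 libraries compared were fitted (adjusted p = 0.06212). Of the 14 hypodermis and seam genes tested, 4 (28.6%) were higher and 0 lower, against 3.71% and 0.998% of all genes, with a median log2 of 0.73. Only col-19 remained called without double-mutant libraries 2 and 4, and 2 were called without double-mutant library 4 or wild-type library 4 or 5. The median was 0.30 without double-mutant library 4. The called members beside col-19 were grd-10, a hedgehog-related gene (log2 1.13), and the nuclear hormone receptor genes nhr-74 (log2 1.75) and nhr-73. The calls of grd-10, nhr-74 and nhr-73 were all lost without double-mutant libraries 2 and 4 (adjusted p = 0.06578, 0.0553 and 0.08259). That of nhr-74 was also lost without double-mutant library 4 or wild-type library 2, 4 or 5, and that of nhr-73 without any single library except double-mutant library 2 and wild-type library 2 (highest adjusted p 0.1301 over all settings). The nhr-73 level was 0.159 to 0.714 CPM in the double mutant, against 0.196 CPM in wild-type library 2 and 0 in the other wild-type libraries.

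The collagens were also split by abundance, after their values were seen. The mean used for the split includes the double-mutant libraries, so a collagen could reach the limit through its level there. All 27 collagens with a mean of at least 100 CPM over the 15 libraries had a positive log2 fold change. So did 110 of the 119 below that level. Of the 27, 20 were higher, against 3.71% of all genes, with a median log2 of 1.09. Without double-mutant libraries 2 and 4, 18 of the 27 were higher, with a median of 0.85. The 119 collagens below that level had a median of 1.24 with all libraries and -0.12 without double-mutant libraries 2 and 4, with 2 and 0 called. Over all 146 the median was 1.19, against 0.19 without double-mutant library 4 and -0.06 without double-mutant libraries 2 and 4. Of 49 tested members of the moulting cycle list, 1 was higher (cutl-10), or 2.04%, against 3.71% of all genes. The genes of this list peak when a new cuticle is made. The number higher was 0 without double-mutant libraries 2 and 4 or without wild-type library 2 or 4. The sum of the list was highest in double-mutant library 4. The part of moulting stage in the collagen levels was not tested.

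Some members of several families of innate immune and intestinal response genes were higher. In the list of dod and irg genes, which are regulated by the insulin pathway or by pathogens, 9 of 23 tested (39.1%) were higher and 0 lower, against 3.71% and 0.998% of all genes, and 6 were higher without double-mutant libraries 2 and 4. The count was 7 to 9 with any single library left out. At an unadjusted p under 0.05, 10 were higher and 2 lower, where 3202 of all 15032 genes were under it in either direction. DESeq2 called 9 higher and 1 lower. The summed level of the list overlapped, at 992 to 1630 CPM in the double mutant against 853 to 1338 CPM in wild type. The list median was a log2 of 0.27, or 0.13 without double-mutant libraries 2 and 4 and 0.18 without double-mutant library 2. Among the 9 was dod-24 (chromosome IV, 12940106 to 12941354), a gene that responds to bacterial pathogens. It had 84.8, 116, 74.2, 56.9 and 65.7 CPM in the double mutant, against 12.2, 14.9, 8.52, 14.6 and 9.69 CPM in wild type (log2 2.73, SE 0.264, adjusted p = 6.97e-05). The lowest double-mutant library thus exceeded the highest wild-type library by a wide margin. The fndc-1 single mutant had 32.8 ± 11.5 CPM (SD, n = 5), below the double mutant (log2 1.28 in the double mutant over it, adjusted p = 0.01878) and above wild type (log2 1.46, adjusted p = 0.007195).

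The same list held irg-4, drd-50 and dod-19. The infection response gene irg-4 had 18.9, 11.8, 15.0, 21.9 and 14.9 CPM in the double mutant, against 6.08, 3.59, 3.66, 3.63 and 3.42 CPM in wild type (log2 2.02, adjusted p = 6.979e-05). It was also above the fndc-1 single mutant (8.09 ± 1.33 CPM, SD, n = 5, log2 1.03, adjusted p = 0.01531). A gene named for lower levels under dietary restriction, drd-50, had 12.1, 12.3, 10.2, 6.32 and 8.04 CPM in the double mutant, against 1.75, 1.198, 2.06, 0.596 and 1.38 CPM in wild type (log2 2.81, adjusted p = 0.0001077). The gene dod-19 had 226 ± 26.7 CPM in the double mutant and 112 ± 10.7 CPM in wild type (SD, n = 5 each, log2 1.02, adjusted p = 0.0006544). The gene dct-17, named for its control by the transcription factor DAF-16, had 15.6 to 18.9 CPM in the double mutant, against 3.20 to 5.36 CPM in wild type (log2 2.07, adjusted p = 0.0001769). It did not pass against the fndc-1 single mutant, which had 15.3 ± 5.44 CPM (SD, n = 5, log2 0.19, adjusted p = 0.698).

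C-type lectins are secreted or membrane proteins with a carbohydrate-binding fold, many of them made in the intestine during infection. Of 129 tested, out of 240 listed, 14 (10.9%) were higher and 0 lower, against 3.71% and 0.998% of all genes, with a median log2 of 0.31. At an unadjusted p under 0.05, 26 were higher and 6 lower, where 3202 of all 15032 genes were under it in either direction. Without double-mutant libraries 2 and 4 these values were 10, 0 and 0.18. Omission of double-mutant library 5 gave 9 higher and of wild-type library 4 gave 8, and with any other library left out there were 10 to 14. The summed level of the lectins overlapped, at 5053 to 6331 CPM in the double mutant against 4780 to 5695 CPM in wild type. The gene clec-209 had 332, 440.3, 300.0, 279 and 315 CPM in the double mutant, against 154, 107, 133, 106 and 122 CPM in wild type (log2 1.43, SE 0.139, adjusted p = 6.97e-05). The table also lists F56A4.2 with nearly the same values, 327.9, 441.5, 293.9, 277 and 320.9 CPM in the double mutant against 150.3, 105.5, 133.6, 105.6 and 123 CPM in wild type, so how reads were divided between these genes is uncertain. Also higher were clec-51 (log2 0.86, adjusted p = 0.0006216), clec-160 (log2 0.74, adjusted p = 0.001052) and clec-186 (log2 0.70, adjusted p = 0.003761). Of these, clec-186 overlapped between the strains, at 59.3 to 89.8 CPM in the double mutant against 41.2 to 59.9 CPM in wild type.

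In the list of lysozymes and saposins, 4 of 31 tested were higher (lys-1, lys-2, lys-8 and spp-23) and 1 lower (spp-2), against 3.71% higher and 0.998% lower among all genes. At an unadjusted p under 0.05, 4 were higher and 7 lower, where 3202 of all 15032 genes were under it in either direction. The median log2 was 0.12 with all libraries, -0.22 without double-mutant library 2 and -0.27 without double-mutant libraries 2 and 4. With single libraries left out, 1 to 4 were higher and 0 to 3 lower. The gene lys-2 had 139, 189, 129.6, 190.2 and 139 CPM in the double mutant, against 77.0, 71.8, 67.4, 82.9 and 63.2 CPM in wild type (log2 1.12, SE 0.184, adjusted p = 0.003175). Double-mutant libraries 2 and 4 were the highest, and the other 3 still lay above all wild-type libraries. Without those libraries lys-2 was the only one of the 5 that passed (log2 0.89, adjusted p = 0.02343). The calls of lys-1, lys-8 and spp-23 were each lost without double-mutant library 5 or wild-type library 2, 4 or 5, and the call of spp-2 without double-mutant library 1, 3, 4 or 5 or wild-type library 1, 2 or 4. The highest adjusted p over all settings was 0.1062 for spp-23 and 0.1015 for spp-2, and 0.0956 and 0.09419 for lys-1 and lys-8. That of lys-1 was also lost without double-mutant library 4, and that of lys-8 without wild-type library 3. Of 22 genes tested from the list of the intracellular pathogen response, which answers to viruses and microsporidia, 0 passed in edgeR, DESeq2 or limma-voom, and 1 had an unadjusted p under 0.05. Over all genes, 4.71% passed in edgeR.

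Enzymes that modify foreign and endogenous small molecules moved in both directions. UDP-glucuronosyltransferases attach a sugar acid that makes compounds water soluble. Of 62 genes tested, 11 (17.7%) were higher and 0 lower, against 3.71% and 0.998% of all genes, with a median log2 of 0.44. Without double-mutant libraries 2 and 4, 7 were higher with a median of 0.28, and the count was 6 without wild-type library 2 or 4 and 7 without wild-type library 5 or double-mutant library 5. The median was 0.30 without double-mutant library 4. The gene ugt-61 had 11.31, 13.42, 11.31, 9.948 and 13.8 CPM in the double mutant, against 6.73, 6.51, 7.12, 6.29 and 6.44 CPM in wild type (log2 0.85, adjusted p = 0.000447). It was above the fndc-1 single mutant as well (8.27 ± 0.868 CPM, SD, n = 5, log2 0.53, adjusted p = 0.0259). The genes ugt-46 (log2 0.82, adjusted p = 0.0006544), ugt-47 (log2 0.91, adjusted p = 0.00236) and ugt-60 (log2 0.76, adjusted p = 0.008307) were higher without overlap. In the fndc-1 single mutant these genes were above wild type too (log2 0.541, 0.815 and 0.725, adjusted p = 0.01871, 0.008202 and 0.01761). They did not pass between the double and the single mutant (adjusted p = 0.3499, 0.7543 and 0.9238).

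Cytochrome P450 enzymes oxidise steroids, fatty acids and toxins. Among 64 tested, 7 were lower and 4 higher (17.2% called), against 0.998% lower and 3.71% higher among all genes. The median log2 was 0.06, and 5 were lower and 3 higher without double-mutant libraries 2 and 4. The number lower was 4 without double-mutant library 1 or 4 or wild-type library 4 or 5, and 11 without wild-type library 3. The number higher was 2 without double-mutant library 1, 4 or 5 or wild-type library 2, 4 or 5. The neighbours cyp-25A1 (chromosome III, 3832591 to 3834586) and cyp-25A3 (3837538 to 3839735) were both lower. The gene cyp-25A1 had 5.07, 5.57, 5.73, 2.003 and 5.20 CPM in the double mutant, against 18.7, 9.52, 14.8, 9.57 and 20.2 CPM in wild type (log2 -1.63, SE 0.302, adjusted p = 0.006836). For cyp-25A3 the values were 2.70 to 3.98 CPM in the double mutant, against 5.401 to 7.80 CPM in wild type (log2 -0.96, adjusted p = 0.0035). Also lower, cyp-29A4 had log2 -1.39 (adjusted p = 0.004619). Higher were cyp-33E2 (log2 0.64, adjusted p = 0.002248) and cyp-14A1 (log2 1.28, adjusted p = 0.003468). Neither passed between the fndc-1 single mutant and wild type (adjusted p = 0.1819 and 0.382).

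Lower too was fmo-5, a flavin monooxygenase gene, at 4.95 to 7.18 CPM in the double mutant against 8.80 to 11.8 CPM in wild type (log2 -0.79, adjusted p = 0.003017). The fndc-1 single mutant had 5.38 ± 0.549 CPM of it (SD, n = 5), also below wild type (log2 -0.91, adjusted p = 0.001295). Glutathione S-transferases, which conjugate oxidised and foreign compounds, had 5 of 41 (12.2%) higher and 0 lower, against 3.71% and 0.998% of all genes. There were 2 higher and 1 lower of 42 tested without double-mutant libraries 2 and 4. The 2 were gst-10 and gst-26. Of these, gst-10 (25.1 ± 6.97 CPM in the double mutant and 10.4 ± 3.47 CPM in wild type, SD, n = 5 each, log2 1.26, adjusted p = 0.005163) kept its call under all settings tried, and gst-26 (log2 0.67, adjusted p = 0.02726) lost it without double-mutant library 5 or wild-type library 2, 4 or 5. With wild-type library 2, 4 or 5 left out, 1 of the 41 remained called, and 8 were without wild-type library 1. The number higher was 2 without double-mutant library 4 or 5 and 3 without wild-type library 3, and without double-mutant library 2 there were 3 higher and 2 lower.

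**Figure D4:**
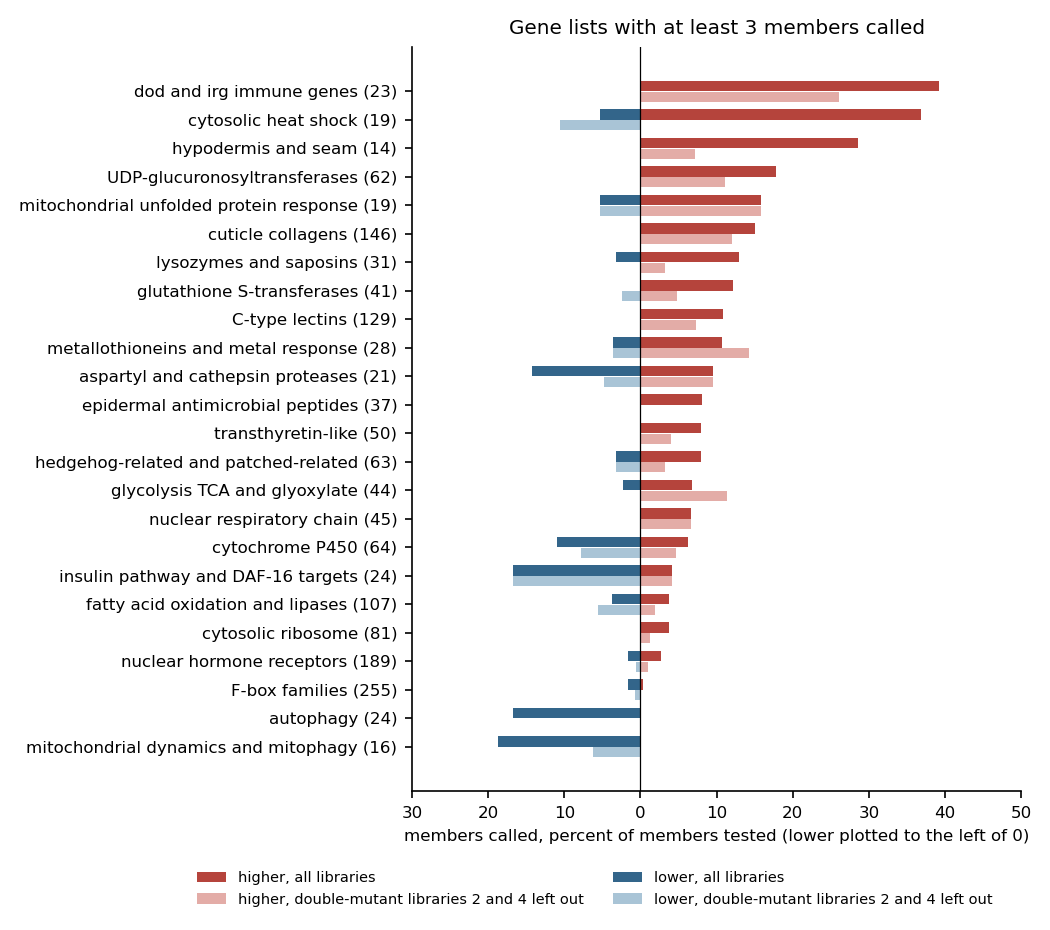
Members called higher (right) and lower (left) in the double mutant, as a percent of the members tested, for each list with at least 3 members called, with dark bars for all libraries and pale bars without double-mutant libraries 2 and 4. Pale bars are missing where 0 members were called, as for higher heat shock genes and lower autophagy genes.

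Of 19 genes of the mitochondrial unfolded protein response tested, 3 were higher (gpd-2, phb-1 and phb-2) and 1 lower (atfs-1 itself). The share called was 21.1%, against 4.71% of all genes (3.71% higher and 0.998% lower). The median log2 was 0.09, or 0.06 to 0.13 with single libraries left out, and leaving out double-mutant library 2 gave 5 higher. The summed level of the list was 3540, 2374, 3749, 3895 and 3487 CPM in double-mutant libraries 1 to 5, against 2716, 2885, 3119, 2679 and 3001 CPM in wild-type libraries 1 to 5. Double-mutant library 2 thus lay below every wild-type library and the other 4 above them all. The chaperone gene hsp-6, the common reporter of this response, had 904, 319, 997, 1048 and 857 CPM in the double mutant, against 535, 638, 692, 587 and 696 CPM in wild type. Double-mutant library 2 was below all wild-type libraries and the other 4 were above them, and hsp-6 did not pass (log2 0.39, SE 0.238, adjusted p = 0.3386). Without double-mutant libraries 2 and 4 it did (log2 0.53, adjusted p = 0.03934). The second reporter, hsp-60, had 541, 266, 618, 575 and 526 CPM in the double mutant, against 382, 389, 505, 324 and 484 CPM in wild type, and passed neither with all libraries (log2 0.28, adjusted p = 0.4362) nor without libraries 2 and 4 (log2 0.41, adjusted p = 0.2256).

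The prohibitins PHB-1 and PHB-2 form a ring-shaped scaffold in the mitochondrial inner membrane. The transcript of phb-1 had 357, 315, 357, 375 and 346 CPM in the double mutant, against 260.1, 265, 297, 253 and 265 CPM in wild type (log2 0.39, SE 0.0781, adjusted p = 0.01124). That of phb-2 had 281 to 301 CPM in the double mutant, against 229.5 to 272 CPM in wild type (log2 0.26, adjusted p = 0.04343). The strains did not overlap for either gene. The call of phb-2 was lost with both double-mutant library 2 and library 4 left out, and with any one library left out except double-mutant 2 and wild-type 3, at a highest adjusted p of 0.1185 over all settings. The glycolytic gene gpd-2, which encodes a glyceraldehyde-3-phosphate dehydrogenase and is on the list as a reported ATFS-1 target, had 364 ± 65.3 CPM in the double mutant and 240.2 ± 19.2 CPM in wild type (SD, n = 5 each, log2 0.60, adjusted p = 0.005476).

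Among 45 nuclear genes of the respiratory chain, 3 (6.67%) were higher and 0 lower, against 3.71% and 0.998% of all genes, with a median log2 of 0.16. With single libraries left out 2 to 5 were higher, with 5 without double-mutant library 2. The 3 were ucr-2.2, of complex III (76.4 ± 7.88 CPM in the double mutant and 51.2 ± 2.71 CPM in wild type, SD, n = 5 each, log2 0.58, adjusted p = 0.0004257), gas-1, of complex I (111 ± 10.4 CPM in the double mutant and 81.1 ± 4.15 CPM in wild type, SD, n = 5 each, log2 0.46, adjusted p = 0.001628), and asb-2, of the ATP synthase. The call of asb-2 (log2 0.36, adjusted p = 0.03643) was lost without double-mutant libraries 2 and 4 together, double-mutant library 4 or 5 or wild-type library 1, 3, 4 or 5 (highest adjusted p over all settings 0.1632). At an unadjusted p under 0.05, 20 of the 45 were higher and 0 lower, where 3202 of all 15032 genes were under it in either direction. DESeq2 called 8 higher and 0 lower, and limma-voom 3 and 0. The summed level of the 45 genes did not overlap, at 13205 to 14187 CPM in the double mutant against 12094 to 13051 CPM in wild type. Of the 12 protein genes of the mitochondrial genome, which had a median log2 of -0.17, 0 passed in edgeR, 0 in DESeq2 and 0 in limma-voom, and 1 had an unadjusted p under 0.05. The share of all genes that passed in edgeR was 4.71%.

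In the list of mitochondrial dynamics and mitophagy, 3 of 16 (18.8%) were lower and 0 higher, against 0.998% and 3.71% of all genes. The 3 were fndc-1, whose mutation defines the strain, lgg-2 and dct-1. LGG-2 is an Atg8-like protein of the autophagosome membrane, and DCT-1 is the worm counterpart of the mitophagy receptor BNIP3. The lgg-2 transcript had 123.4, 111.8, 119.5, 102.8 and 122.6 CPM in the double mutant, against 141, 183, 131, 216 and 153 CPM in wild type (log2 -0.51, adjusted p = 0.02411). The dct-1 transcript had 13.01, 11.6, 12.1, 10.4 and 14.7 CPM in the double mutant, against 20.2, 26.8, 13.8, 38.2 and 19.8 CPM in wild type (log2 -0.94, adjusted p = 0.02672). The strains did not overlap for lgg-2 and overlapped for dct-1, and both were highest in wild-type libraries 2 and 4, the libraries with high sperm sums in wild type. Both calls were lost without double-mutant library 4 or either of those wild-type libraries, that of lgg-2 also without double-mutant library 5, and both without double-mutant libraries 2 and 4 (adjusted p = 0.09247 and 0.1104). Of the 16 genes, 1 was lower without double-mutant libraries 2 and 4, 5 without double-mutant library 2, 2 without double-mutant library 5 and 1 without double-mutant library 4 or wild-type library 2 or 4. Of 24 autophagy genes, 4 (16.7%) were lower (lgg-2, epg-8, bec-1 and atg-16.2) and 0 higher, against 0.998% and 3.71% of all genes, with a median log2 of -0.29. None was called (0 of 24) without double-mutant libraries 2 and 4. Leaving out double-mutant library 4 or 5 or wild-type library 2 or 4 left 0 of them called, leaving out wild-type library 5 left 1, and leaving out double-mutant library 2 gave 8. At an unadjusted p under 0.05, 11 of the 24 were lower and 0 higher, where 3202 of all 15032 genes were under it in either direction. The summed level of autophagy genes did not overlap, at 1192 to 1448 CPM in the double mutant against 1519 to 2021 CPM in wild type.

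Small heat shock proteins are chaperones that bind unfolded proteins. Of 19 cytosolic heat shock genes tested, 7 were higher and 1 lower with all libraries (42.1% called), against 3.71% higher and 0.998% lower among all genes, but 0 higher and 2 lower without double-mutant libraries 2 and 4. With all libraries, DESeq2 called 9 higher and 1 lower and limma-voom 0 higher and 1 lower. The gene hsp-16.41 had 0.821, 1.09, 0.307, 9.70 and 0.339 CPM in the double mutant, against 0.287, 0.0218, 0.151, 0.0744 and 0.115 CPM in wild type. Double-mutant library 4 thus held most of the transcript, although the other 4 also lay above wild type. Its fold change (log2 4.22, adjusted p = 0.02546) no longer passed without that library or without wild-type library 2, 3, 4 or 5, and the log2 value without libraries 2 and 4 was 1.89 (adjusted p = 0.1294). Without double-mutant library 4 alone, 1 member of the list was higher, and without wild-type library 2, 4 or 5 the number was 0, 1 and 0. It was 3 without wild-type library 3. The endoplasmic reticulum stress and proteasome lists had 0 members called of 29 and 33 in edgeR, DESeq2 and limma-voom, with 0 at an unadjusted p under 0.05. Over all genes, 4.71% were called in edgeR, and 3202 of 15032 had an unadjusted p under 0.05.

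Of 44 genes of glycolysis, the tricarboxylic acid cycle and the glyoxylate cycle, 3 were higher (gpd-2, aldo-1 and idh-2) and 1 lower (icl-1), so that 9.09% were called against 4.71% of all genes (3.71% higher and 0.998% lower). The median log2 was 0.07. There were 5 higher and 0 lower without double-mutant libraries 2 and 4, 9 higher and 1 lower without double-mutant library 2, and 2 higher without double-mutant library 4 or 5 or wild-type library 2, 4 or 5. The call of idh-2 (log2 0.32, adjusted p = 0.02865) was lost without double-mutant libraries 2 and 4 together, double-mutant library 4 or 5 or wild-type library 2, 4 or 5. The aldolase gene aldo-1 had 94.6 ± 19.2 CPM in the double mutant and 57.3 ± 9.77 CPM in wild type (SD, n = 5 each, log2 0.72, adjusted p = 0.01178), a call lost only without double-mutant libraries 2 and 4 together (adjusted p = 0.05639). The glyoxylate cycle gene icl-1 had 169, 152, 189.8, 207 and 251 CPM in the double mutant, against 392, 559.8, 258, 554 and 366 CPM in wild type (log2 -1.14, adjusted p = 0.02242). The wild-type values were highest in libraries 2 and 4, and without either of these, double-mutant library 4 or double-mutant libraries 2 and 4 together the call was lost (adjusted p up to 0.08671 over all settings). The list of fatty acid oxidation and lipases had 4 higher and 4 lower of 107 tested (7.48% called), against 3.71% higher and 0.998% lower among all genes. Without double-mutant libraries 2 and 4, 2 were higher and 6 lower of 108, and with single libraries left out 2 to 5 were higher and 1 to 8 lower. Of its members, the lysosomal lipase gene lipl-4 was lower (0.857 to 1.14 CPM in the double mutant, against 1.62 to 2.77 CPM in wild type, log2 -1.12, adjusted p = 0.01113). The short-chain dehydrogenase gene dhs-26 was higher (1.12 to 2.25 CPM in the double mutant, against 0.197 to 0.372 CPM in wild type, log2 2.44, adjusted p = 0.01184). In the fndc-1 single mutant lipl-4 was below wild type too (log2 -0.95, adjusted p = 0.04408), and dhs-26 did not pass (log2 0.28, adjusted p = 0.8779).

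The list of insulin pathway genes and targets of its transcription factor DAF-16 had 4 lower and 1 higher of 24 tested (20.8% called), against 0.998% lower and 3.71% higher among all genes. The median log2 was -0.33. The higher gene was gpd-2, and icl-1 was among the lower ones. Both are also counted in lists described above, so they are not separate results here. The counts were again 4 lower and 1 higher without double-mutant libraries 2 and 4, with a median of -0.21. Without double-mutant library 4 or wild-type library 2 or 4, 2 were lower. The summed level of the list did not overlap, at 3926 to 4333 CPM in the double mutant against 4658 to 5532 CPM in wild type. The metallothionein gene mtl-1, which encodes a metal-binding protein and is a DAF-16 target, had 11.5, 12.2, 12.02, 16.06 and 12.3 CPM in the double mutant, against 28.4, 38.8, 15.1, 52.3 and 20.6 CPM in wild type (log2 -1.27, SE 0.258, adjusted p = 0.01118). Double-mutant library 4 and wild-type library 3 overlapped. In the fndc-1 single mutant mtl-1 had 4.36 ± 0.540 CPM (SD, n = 5), so that the double mutant was above that strain (log2 1.55, adjusted p = 0.006575) while below wild type. The desiccation protein gene lea-1 had 307, 159, 353, 474 and 338 CPM in the double mutant, against 674, 713, 449, 671 and 725 CPM in wild type (log2 -0.99, adjusted p = 0.01908). The calls of mtl-1 and lea-1 were lost when only the 10 libraries compared were fitted (adjusted p = 0.06236 and 0.07102).

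Other leading lower genes belonged to different functions. The dosage compensation and sex determination gene sdc-3 had 30.7, 9.04, 31.9, 25.9 and 27.3 CPM in the double mutant, against 49.96, 56.9, 62.5, 57.7 and 68.2 CPM in wild type (log2 -1.24, SE 0.239, adjusted p = 0.008307). Double-mutant library 2 was the lowest, and all 5 lay below wild type. The cathepsin B-like protease gene cpr-1 had 562, 604, 595, 391 and 613 CPM in the double mutant, against 1295, 1977, 712, 2021 and 1245 CPM in wild type (log2 -1.39, adjusted p = 0.008912). The fndc-1 single mutant had 585 ± 179 CPM of cpr-1 (SD, n = 5), also below wild type (log2 -1.31, adjusted p = 0.02172). The cpr-1 level was highest in wild-type libraries 2 and 4, which were also the highest for the related gene cpr-4 (257 to 450.5 CPM in the double mutant, against 393 to 1503 CPM in wild type). The neuronal immunoglobulin-domain gene rig-3 (log2 -1.09, adjusted p = 0.007066) and the gene tcl-2 (log2 -1.11, adjusted p = 0.0008093) were lower without overlap. So were ctg-1 (log2 -0.67, adjusted p = 0.001497) and cln-3.2, a worm homologue of the gene of Batten disease (log2 -0.33, adjusted p = 0.01118, with the call lost when only the 10 libraries compared were fitted or with upper-quartile factors, highest adjusted p = 0.07364). In the fndc-1 single mutant cln-3.2 was below wild type too (log2 -0.32, adjusted p = 0.02384). There sdc-3, rig-3, tcl-2 and ctg-1 did not pass against wild type (adjusted p = 0.08086, 0.1246, 0.05516 and 0.06789). Nor did they pass against the double mutant (adjusted p = 0.5377, 0.4379, 0.1897 and 0.2685).

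A further pair of genes differed from both other strains in the same direction. The gene swah-1 had 26.3 ± 2.06 CPM in the double mutant, 43.2 ± 2.34 CPM in the fndc-1 single mutant and 36.7 ± 2.23 CPM in wild type (SD, n = 5 each). It was lower than wild type (log2 -0.48, adjusted p = 0.001291) and lower than the single mutant (log2 -0.71, adjusted p = 2.666e-05). The ribosomal protein gene rpl-2 had 3123, 2976, 3395, 2913 and 3121 CPM in the double mutant, against 1795, 1913, 1984, 1750.0 and 1796 CPM in wild type (log2 0.75, SE 0.0856, adjusted p = 0.0001992). The single mutant had 1865 ± 173 CPM of it (SD, n = 5), and the double mutant was above that as well (log2 0.74, adjusted p = 0.0001678). Of 81 cytosolic ribosomal protein genes tested, 3 were higher (rpl-2, rpl-11.2 and rpl-25.1), or 3.7%, against 3.71% of all genes. The calls of rpl-11.2 and rpl-25.1 were lost without double-mutant libraries 2 and 4 together. They were also lost without double-mutant library 4 or 5 or wild-type library 1, 3, 4 or 5 (highest adjusted p 0.1893). The summed level of the 81 genes was highest in double-mutant library 2 (156656 CPM, and 100822 to 112072 CPM in the other double-mutant libraries, against 94838 to 107037 CPM in wild type). In all, 147 genes (0.978%) passed between the double mutant and the fndc-1 single mutant, 111 higher and 36 lower. This comparison uses the same double-mutant libraries as the one with wild type.

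Some of the higher genes lay side by side. Runs of at least 4 called genes with the same direction and starts at most 20 kb apart were found at 4 places, and all held higher genes. Each span begins and ends at a called gene, so a high share called within it follows from the definition. Over all genes, 3.71% were higher. On chromosome IV from 12907469 to 12941354, 8 of 10 tested genes were higher: K08D8.4, K08D8.5, irg-6, C32H11.3, C32H11.4, C32H11.9, dod-21 and dod-24. From 12962808 to 12989455 on the same chromosome, 5 of 8 were, among them dod-17 and dod-22. On chromosome V from 13716824 to 13777772, 9 of 15 were, among them dct-17, irg-5 and cld-9. The fourth run, on chromosome IV from 4072327 to 4084209, held 4 of 5, among them pqn-75. Without double-mutant libraries 2 and 4, the numbers called in these runs were 6, 2, 6 and 4. Genes named in these runs that lost their call in some setting were C32H11.3, dod-17 and dod-22 (without these libraries), irg-5 (without wild-type library 2, 4 or 5) and dod-21 (without these libraries, double-mutant library 5 or any wild-type library), and their highest adjusted p was 0.08185, 0.06187, 0.06456, 0.05455 and 0.1664. Within the first run, C32H11.4 had 12.5, 7.75, 10.5, 8.19 and 6.85 CPM in the double mutant, against 1.15, 1.31, 1.38, 1.098 and 1.35 CPM in wild type (log2 2.86, SE 0.214, adjusted p = 4.763e-06). Genes of the runs that are in no list were named after their values were seen. K08D8.5 had 17.6 to 22.8 CPM in the double mutant, against 7.27 to 8.17 CPM in wild type (log2 1.37, adjusted p = 3.841e-05).

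**Figure D5:**
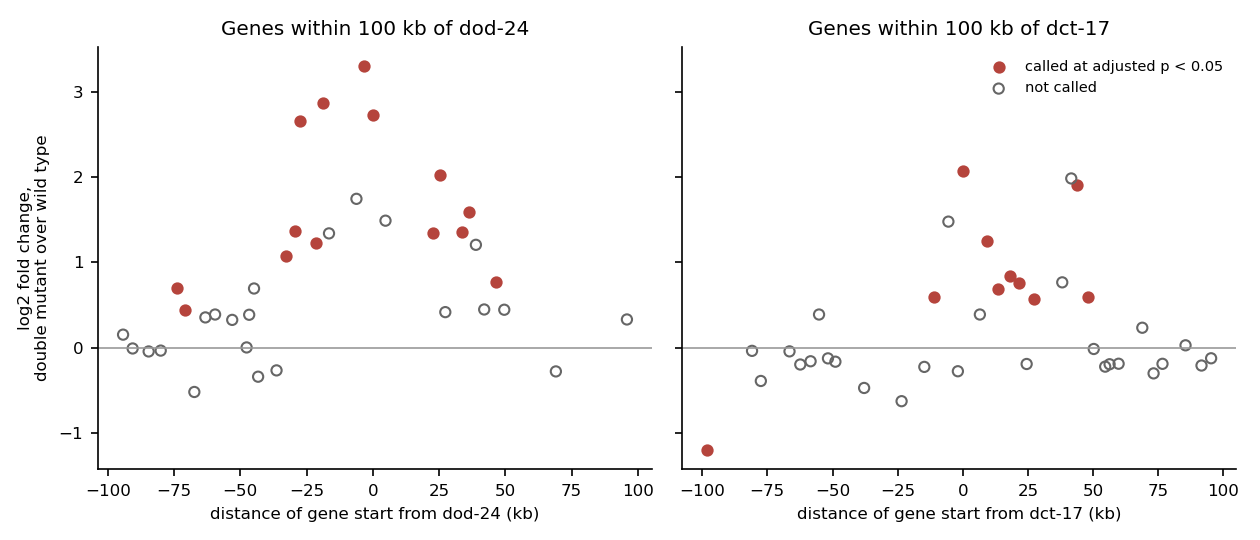
Log2 fold change of the double mutant over wild type for genes within 100 kb of dod-24 and of dct-17, against the distance between gene starts, with filled points for genes called at an adjusted p under 0.05. Called genes are higher except H37A05.2 at the far left of the dct-17 panel, and C32H11.9, which has no counts in wild type, is not drawn.

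The gene C32H11.9 in that run had 286, 578, 164, 75 and 205 counts in double-mutant libraries 1 to 5 and 0 in every wild-type library. Its 1308 counts over the double-mutant group, scaled to the sizes of the libraries, were at least 418-fold higher than a floor of 3 counts over the wild-type group (adjusted p = 0.0006156). The fndc-1 single mutant held 640 counts of it. It kept its call without double-mutant libraries 2 and 4 (adjusted p = 0.0009528). How reads that match several genes were handled is not given in the sources used here.

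The surroundings of the mutated genes were counted separately. Within 500 kb of fndc-1, 6 of 188 genes tested were called, all higher (3.19%, against 4.71% of all genes). They included C05D12.3 (68.3 ± 29.7 CPM in the double mutant and 24.3 ± 3.84 CPM in wild type, SD, n = 5 each, log2 1.49, adjusted p = 0.001756) and the transthyretin-like gene ttr-18 (log2 1.03, adjusted p = 0.005773). Within 500 kb of atfs-1, 15 of 177 were called, 13 higher and 2 lower (8.47%). The run that holds dct-17 lies in this window. Of its genes, F35E12.10 had 43.3 to 53.4 CPM in the double mutant, against 22.9 to 36.6 CPM in wild type (log2 0.84, adjusted p = 0.0006216), and 47.1 ± 2.05 CPM in the fndc-1 single mutant (SD, n = 5), which did not carry the atfs-1 allele.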

How the data were processed

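RNA was taken from whole worms at day 1 of adulthood, freed of food bacteria, flash frozen and extracted with Trizol. The authors deposited raw counts per gene for 20191 genes in 15 libraries. Per the submitters' processing notes, the tools were Trimmomatic 0.36, STAR 2.6.0c and featureCounts of Subread 1.6.1, with build WBcel235. Not given in the sources used here were the strand setting, the annotation used for counting and the rule for reads that match several genes. Per the labels' protocols, libraries were made with Illumina TruSeq kits, of which both an unstranded and a stranded name are given, so reads of overlapping and antisense genes may not be separable. Positions came from Ensembl release 115 by gene name for 19877 genes, and 314 did not match.

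Counts were tested with edgeR 4.0.16 in R 4.3.3: genes with too few counts were removed with filterByExpr, library sizes were scaled with TMM factors, and strain means were fitted over all 15 libraries with the quasi-likelihood F-test, two-sided. P-values were adjusted by Benjamini-Hochberg over all genes tested, with a threshold of 0.05. CPM values are counts scaled to the library size after TMM and are not corrected for gene length. The members of this comparison and the gene lists were chosen with earlier results of these data known. The 49 lists were described by counts and medians only. Named genes were the mutated pair, hsp-60 and hsp-6, then in each direction the 12 genes with a class symbol, at least 5 CPM in the higher strain, no overlap between strains and the smallest adjusted p. To these were added up to 4 called members of each list with at least 3 called, and up to 3 called genes within 500 kb of fndc-1 and of atfs-1.

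Alternatives were DESeq2 1.42.0, limma-voom (limma 3.58.1), scaling by upper-quartile or by RLE factors, all genes with a count, genes with 1 CPM or more in 5 libraries, a fit of the 10 libraries compared, a replicate block, double-mutant libraries 2 and 4 left out, and each library left out. Where 3 double-mutant libraries remained, the spread was still estimated over all strains. On simulated data for this comparison, with 14643 genes, 65% of 100 genes changed 2-fold and 32% of 100 genes changed 1.5-fold were recovered, with 12 false calls. The simulated counts varied independently from gene to gene around wild-type means. They held no shift of a whole library, such as that of double-mutant libraries 2 and 4, so these rates need not hold for the real libraries. Within a strain, pairs of libraries differed by more than sampling noise, with a chi-square per gene of 26.9 to 657 in the double mutant and 13.5 to 103 in wild type, so none was counted as a repeat of another.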

Additional observations from a re-analysis of the deposited data

Results flagged for a closer look

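In 38 of 308 groups of 5 libraries examined (each named gene and each list's summed CPM in each strain), 1 library lay far from the other 4. For independent, normally distributed values, chance gives such a library in about 1 in 20 groups. The groups here share the same libraries and many genes were picked by their values, so that rate need not hold for them. Double-mutant library 2 was that library in 18 groups and double-mutant library 4 in 12.

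Double-mutant library 2 was low for hsp-6 (319 CPM, against 857 to 1048 in the other 4), hsp-60 (266 CPM) and sdc-3 (9.04 CPM). It was high for fndc-1 (10.2 CPM), gst-26 (58.8 CPM), spp-23 (29.2 CPM), lys-8 (296 CPM), cnc-8 (32.98 CPM) and F07A11.5 (24.7 CPM). Its summed levels were low for the mitochondrial unfolded protein response (2374 CPM), glycolysis and related cycles (10853 CPM), pharynx (2186 CPM), osmotic stress (497.5 CPM) and argonautes (1688 CPM). They were high for the cytosolic ribosome (156656 CPM), glutathione S-transferases (916 CPM), lysozymes and saposins (5825 CPM) and transthyretin-like genes (3603 CPM).

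Double-mutant library 4 was low for cyp-25A1 (2.003 CPM) and cpr-1 (391 CPM). It was high for acs-6 (5.31 CPM), ugt-47 (63.3 CPM), hsp-16.48 (19.6 CPM), hsp-16.41 (9.70 CPM), hsp-16.49 (19.4 CPM), mtl-1 (16.06 CPM), zipt-13 (44.4 CPM) and fbxa-125 (0.976 CPM), and in the sums of flavin monooxygenases (62.5 CPM) and sperm genes (1693 CPM). Double-mutant library 5 was low for phb-2 (281 CPM).

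In wild type, library 1 was high for irg-4 (6.08 CPM) and grd-10 (6.61 CPM), library 2 for nhr-73 (0.196 CPM) and the glycolysis sum (14153 CPM), and library 3 for phb-1 (297 CPM) and dod-19 (130.4 CPM). Wild-type library 3 was low for lea-1 (449 CPM).

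Some of these genes lost their call between the strains when single libraries were left out. That of gst-26 was lost without double-mutant library 5 or wild-type library 2, 4 or 5 (highest adjusted p over all settings 0.1117). That of cnc-8 was lost without any single library except double-mutant library 3 and wild-type library 1 (0.1686), and that of acs-6 without double-mutant library 4 or wild-type library 1, 3 or 5 (0.08499). The calls of hsp-16.48 and hsp-16.49 were lost without double-mutant library 4 or wild-type library 2, 4 or 5, and that of hsp-16.49 also without wild-type library 1 (0.1401 and 0.1574). That of fbxa-125 was lost without double-mutant library 4 or 5 or wild-type library 1, 3, 4 or 5 (0.1151). Both zipt-13 and F07A11.5 kept their calls with each single library left out.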

How the results depend on the processing

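Against 708 genes changed, 558 higher and 150 lower, DESeq2 called 1370 (847 higher and 523 lower), the fit of the 10 libraries compared 275 (242 and 33), the replicate block 507 (446 and 61), no filter 577 (480 and 97), upper-quartile factors 795 (696 and 99), and omission of double-mutant libraries 2 and 4 gave 493 (360 and 133). With 1 library left out in turn the total was 397 to 1157, the number higher 319 to 665 and the number lower 54 to 492. RLE factors, limma-voom and genes with 1 CPM or more in 5 libraries gave 680, 648 and 766. Against the fndc-1 single mutant, 147 genes passed in edgeR, 363 in DESeq2, and 108 to 161 with 1 library left out. The cause of these differences was not tested. Of the 103 named genes called, 55 were called under all alternatives, 59 in the fit of 10 libraries, 67 without double-mutant libraries 2 and 4, and 71 to 100 with 1 library left out, and 0 changed sign. Replicate numbers were not taken to pair the libraries: same-numbered double-mutant and wild-type libraries correlated at 0.038, -0.13, 0.43, 0.54 and 0.34 in their deviations from the strain means, only double-mutant library 3 correlated best with its own number, and the block removed 22 of the named calls. Depth limits genes of low level, such as nhr-73, whose values rest on few counts.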

Other observations

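Genes outside the lists with 3 or more members called are described here, chosen after their values were seen. The gene phy-2, which encodes a prolyl 4-hydroxylase subunit that modifies collagen in the endoplasmic reticulum, had 17.4, 18.9, 17.8, 25.6 and 18.4 CPM in the double mutant, against 10.4, 7.19, 11.5, 7.39 and 10.3 CPM in wild type (log2 1.07, SE 0.188, adjusted p = 0.005163). Of 15 members of the hypoxia and hydrogen sulfide list, it alone passed (6.67%, against 4.71% of all genes). The gene gpdh-1, a glycerol-3-phosphate dehydrogenase that makes glycerol under osmotic stress, had 7.41, 5.26, 6.83, 14.3 and 6.85 CPM in the double mutant, against 2.30, 2.37, 3.36, 1.27 and 1.56 CPM in wild type (log2 1.91, SE 0.348, adjusted p = 0.006251). Of 13 members of the osmotic stress list, it alone passed (7.69%, against 4.71% of all genes). Both genes were above wild type in all 5 double-mutant libraries and kept their calls without double-mutant libraries 2 and 4 (adjusted p = 0.02846 for phy-2 and 0.01549 for gpdh-1). The body wall muscle genes dim-1 (log2 0.71, adjusted p = 0.01399) and mup-2 (log2 0.77, adjusted p = 0.0142) were higher, but lost their calls without these libraries (adjusted p = 0.05772 and 0.08326). They were the 2 called of 24 muscle genes tested (8.33%, against 4.71% of all genes).

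The share of genes called, 4.71% over all genes (3.71% higher and 0.998% lower), was counted for each chromosome without a test. On chromosome X, 118 of 2142 genes tested were higher and 11 lower (6.02% called), a median log2 of 0.08, and without double-mutant libraries 2 and 4 the numbers were 78 and 2. On chromosome V, 158 of 2935 were higher and 46 lower (6.95%), and on chromosome IV 96 of 2547 were higher and 43 lower (5.46%). On chromosome II, 81 of 2667 were higher and 19 lower (3.75%). On chromosome I, 53 of 2415 were higher and 17 lower (2.9%), and on chromosome III 52 of 2314 were higher and 14 lower (2.85%), with median log2 values of -0.05 and -0.06. The shares on chromosomes I to V and X without double-mutant libraries 2 and 4 were 1.9%, 3.0%, 2.38%, 3.77%, 4.53% and 3.73%, against 3.24% of all genes. The called respiratory chain genes ucr-2.2, gas-1 and asb-2 all lie on chromosome X.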
